A study of Rattus norvegicus with 8 samples.

Results

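Among 9848 genes counted in a rat enteric glial cell line, 4 genes were described here, known only by their Ensembl identifiers ENSRNOG00000010807, ENSRNOG00000026716, ENSRNOG00000013536 and ENSRNOG00000054689. They were chosen by their measured levels in these libraries, which were low after THC and far apart between libraries that had the same treatment. Their low level with THC and the size of their spread are therefore a description and no finding. All 4 genes were listed in the count table, and all 4 passed the filter on low counts (more than 10 raw counts in some library), as did 7875 genes in total. Of 47357 rat genes in the reference table used here, 0 carried an identifier of the count table. No symbol, position, role or sequence is therefore given for these genes, and the glial identity of the cells was not checked against marker genes.

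The cells were the EGC/PK060399egfr line, bought from a culture collection, and every library came from this 1 line. Control cells received nothing, and LPS cells received 1 µg/mL of E. coli LPS for 24 h. THC + LPS cells received 0.1 µg/mL of THC and THC-COOH + LPS cells received 10 nM of THC-COOH, in both cases for 1 h before 24 h with LPS. These times are those of the sample labels, and the study's results text gives a shorter time in LPS. No group received a cannabinoid without LPS, and the doses of the 2 cannabinoids were not matched. Each of the 4 groups held 2 libraries, 8 in all, prepared with bulk MARS-seq, a method that counts the 3' ends of polyadenylated transcripts. Whether the 2 libraries of a group stand for separate cultures is not given in the labels. The p-values below therefore measure only the spread between these libraries, which may be technical, and cultures and libraries cannot be told apart.

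Enteric glia are the supporting cells of the nervous system of the gut wall. LPS, a component of the outer membrane of Gram-negative bacteria, is sensed through TLR4 and is used in culture to bring about an inflammatory state. THC is the main psychoactive compound of cannabis and binds the cannabinoid receptors CB1 and CB2. THC-COOH is a product of THC metabolism in the liver, in which a methyl group of THC is replaced by a carboxyl group, and it is not psychoactive.

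Depth differed between the libraries, with total counts from 545779 in LPS library 2 to 1559935 in THC + LPS library 1. Between 9282 and 9717 genes had a count in a library. In a principal component analysis of 3131 genes with a mean raw count of at least 50, the first component held 22.9% of the variance. Control library 1 (−0.78) and LPS library 2 (0.61) lay at its ends, and the other libraries lay between −0.09 and 0.08. Fold changes that rest on either library are given below with and without it. Levels are given as CPM, a gene's count scaled to a common library total after TMM normalization, with the SD over the 2 libraries of a group. In bulk RNA, fewer cells that express a gene and less of its RNA in each cell cannot be told apart.

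ENSRNOG00000010807 had 212 and 171 raw counts in Control libraries 1 and 2, which is 284 and 222 CPM. In the LPS libraries it had 151 and 24 raw counts, or 172 and 44.5 CPM. THC + LPS libraries held 58 and 40 raw counts, or 37.1 and 55.4 CPM, and THC-COOH + LPS libraries held 258 and 327, or 254 and 359 CPM. The THC + LPS libraries and LPS library 2 were thus the low ones, and LPS library 2 lay between both THC + LPS libraries. LPS library 1 lay below both Control libraries and above every low library. The highest level was 9.65 times the lowest.

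ENSRNOG00000026716 had the largest raw counts of the 4 genes. Its counts were 538 and 333 in Control, 383 and 57 in LPS, 107 and 91 in THC + LPS, and 570 and 850 in THC-COOH + LPS, in the order of library 1 and library 2. In CPM these were 722 and 433 in Control, 435 and 106 in LPS, 68.5 and 126 in THC + LPS, and 560 and 932 in THC-COOH + LPS. LPS library 1 lay just above Control library 2, while LPS library 2 again fell between both THC + LPS libraries. From the lowest to the highest library the level differed 13.6-fold.

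ENSRNOG00000013536 had nearly the same order of libraries over a narrower range. It had 136 and 105 raw counts in Control (182 and 136 CPM) and 127 and 30 in LPS (144 and 55.7 CPM). The counts were 86 and 68 in THC + LPS (55.1 and 94.1 CPM) and 173 and 186 in THC-COOH + LPS (170 and 204 CPM). LPS library 2 was within 1 CPM of THC + LPS library 1, and the highest level was 3.70 times the lowest.

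ENSRNOG00000054689 was the gene with the fewest counts, so its levels are the least certain. It had 45 and 24 raw counts in Control (60.4 and 31.2 CPM), 21 and 2 in LPS (23.9 and 3.71 CPM), 12 and 5 in THC + LPS (7.69 and 6.92 CPM), and 32 and 66 in THC-COOH + LPS (31.5 and 72.4 CPM). Its lowest library was LPS library 2, with 2 counts. Its highest level was 19.5 times this one, a ratio that rests on 66 and 2 counts.

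**Figure D1:**
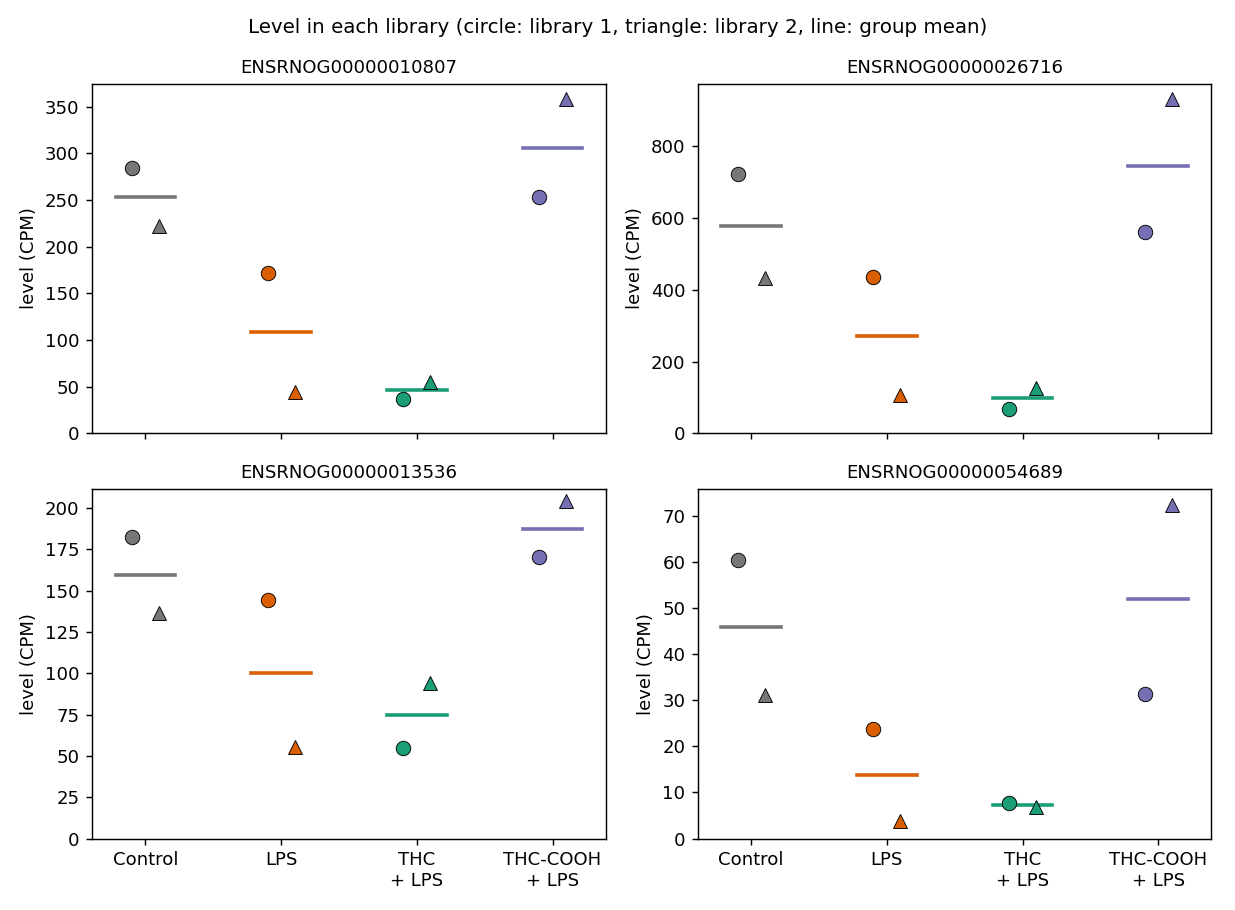
Level of each gene (CPM, vertical axis from 0) in Control, LPS, THC + LPS and THC-COOH + LPS cells (horizontal axis). Circles are library 1, triangles library 2 and lines the mean of both. In each panel LPS library 2 lies at or below the higher of the THC + LPS libraries, and LPS library 1 lies well above it.

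The group means stood in 1 order for all 4 genes: THC-COOH + LPS highest, then Control, then LPS, then THC + LPS. For ENSRNOG00000010807 the means were 306 ± 74.2, 253 ± 44.1, 108 ± 89.9 and 46.3 ± 12.9 CPM (SD, n = 2 libraries in each group). ENSRNOG00000026716 had means of 746 ± 263, 577 ± 205, 271 ± 233 and 97.2 ± 40.6 CPM (SD, n = 2). ENSRNOG00000013536 had 187 ± 24.0, 159 ± 32.6, 99.996 ± 62.7 and 74.6 ± 27.6 CPM (SD, n = 2). ENSRNOG00000054689 had 51.9 ± 28.9, 45.8 ± 20.6, 13.8 ± 14.3 and 7.30 ± 0.540 CPM (SD, n = 2). The small SD of the last group rests on 12 and 5 counts. Neighbours in this order did not all lie apart. Control and THC-COOH + LPS overlapped in each of the 4 genes, and so did LPS and THC + LPS. LPS and Control overlapped in ENSRNOG00000026716 and ENSRNOG00000013536. Most genes overlapped in these comparisons. Of all genes tested, 38.2% lay apart between THC-COOH + LPS and Control, 36.5% between THC + LPS and LPS, and 35.9% between LPS and Control.

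The 8 libraries also stood in nearly the same order for each gene. Ranks 1, 2 and 3 were held by THC-COOH + LPS library 2, Control library 1 and THC-COOH + LPS library 1 in all 4 genes. Control library 2 and LPS library 1 took ranks 4 and 5. LPS library 2 and both THC + LPS libraries took ranks 6 to 8. Over the 8 libraries, Pearson correlations of log2 CPM between the 6 pairs of genes ran from 0.94 to 0.99 (mean 0.96), and Spearman correlations from 0.90 to 1. No p is given, because the genes were chosen with this pattern known, and because the libraries share groups.

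**Figure D2:**
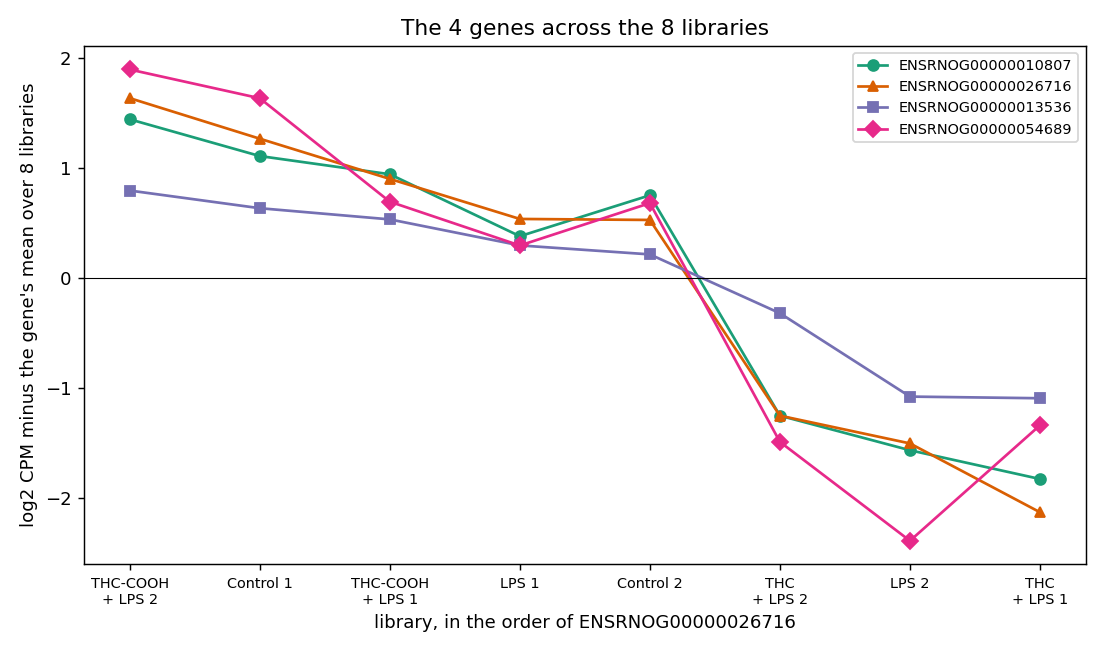
Log2 CPM of each gene minus its own mean over 8 libraries (vertical axis), with the libraries ordered by ENSRNOG00000026716 (horizontal axis). Each line is 1 gene. All 4 genes are above their mean in the Control and THC-COOH + LPS libraries and LPS library 1, and below it in LPS library 2 and both THC + LPS libraries.

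The genes moved together within groups as well as between them. Library 1 was the higher one in Control for 4 of 4 genes and in LPS for 4 of 4. Library 2 was the higher one in THC-COOH + LPS for 4 of 4 genes and in THC + LPS for 3 of 4. The exception was ENSRNOG00000054689 in THC + LPS, where the 2 libraries had 12 and 5 counts. Deviations of the libraries from their own group mean had Pearson correlations from 0.83 to 0.98 between the genes (mean 0.93). With 2 libraries per group these deviations hold only 4 independent values a gene, and the LPS pair weighs most in them. Over the 4 group means the correlations ran from 0.97 to 1.00.

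In LPS the gap between the libraries was widest. For ENSRNOG00000010807 LPS library 1 was 3.85 times library 2 (95% exact binomial interval 2.49 to 6.20). This interval, like the others here, covers counting error only. ENSRNOG00000026716 differed 4.12-fold (3.11 to 5.54) and ENSRNOG00000013536 2.59-fold, with a lower bound of 1.73. ENSRNOG00000054689 differed 6.43-fold, with an interval from 1.57 to 56.6. Among 5464 genes with a mean raw count of at least 20, the median gap between the LPS libraries was 1.15-fold and the 95th percentile was 1.69-fold. A wider gap than that of ENSRNOG00000013536 was found in 43 of these genes, and a wider one than that of ENSRNOG00000054689 in 6. The pair that differs most includes LPS library 2, which had the lowest total. THC + LPS library 1, of another treatment, had the highest total and was also among the low libraries. The part of depth in the gap between the LPS libraries was not tested.

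In the other groups the gaps were smaller. Control libraries differed 1.28- to 1.94-fold, THC-COOH + LPS libraries 1.20- to 2.30-fold and THC + LPS libraries 1.11- to 1.84-fold. The exact interval excluded equal levels in 4 of 4 genes in Control, 4 of 4 in LPS, 3 of 4 in THC-COOH + LPS and 2 of 4 in THC + LPS. For ENSRNOG00000026716 it did so in every group, with THC + LPS library 2 at 1.84 times library 1 (1.37 to 2.45). How often the interval does so over all genes was not counted, so nothing particular to the 4 genes is read from these counts. Set against the 5464 genes, these gaps ranged from common to rare. In Control, 27.1% of the genes had a wider gap than ENSRNOG00000010807, and in THC-COOH + LPS 36.9% had a wider one than ENSRNOG00000013536 and 0.458% a wider one than ENSRNOG00000054689.

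**Figure D3:**
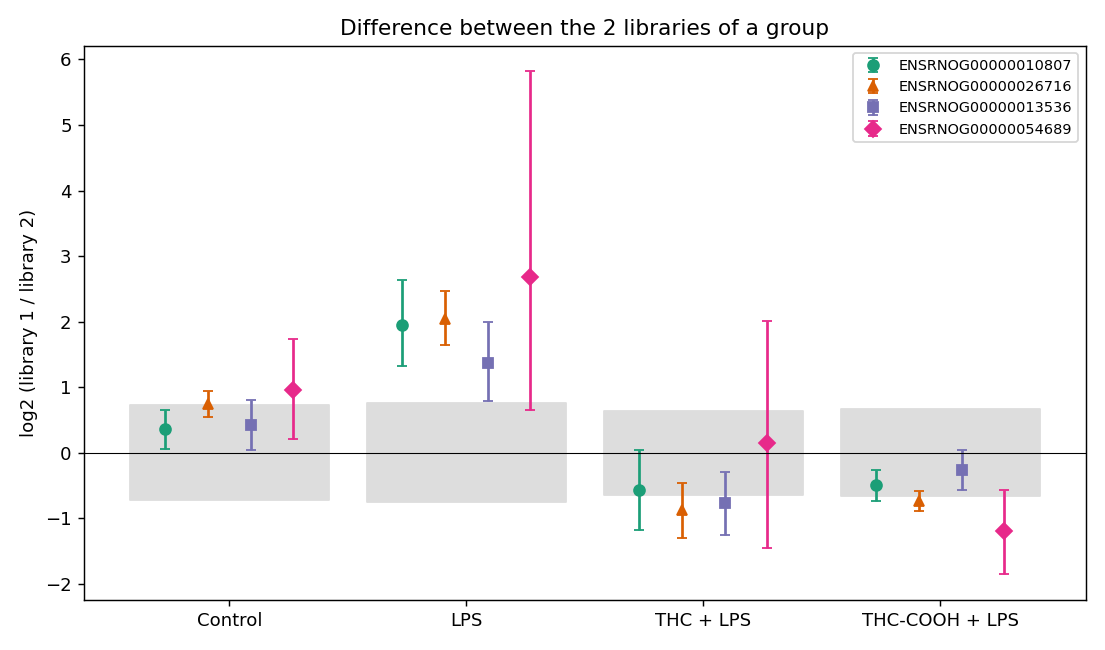
Log2 ratio of library 1 to library 2 (vertical axis) for each gene in each group (horizontal axis), with 95% exact binomial intervals of counting error. Grey boxes reach to the 95th percentile of the absolute ratio over 5464 genes with a mean raw count of at least 20. In LPS all 4 genes lie above the box, at 1.37 to 2.69.

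The total spread of each gene was divided into a part between the 4 groups and a part between libraries of a group. On the log2 scale, 81.8% of the sum of squares lay between groups for ENSRNOG00000010807, 78.6% for ENSRNOG00000026716, 73.5% for ENSRNOG00000054689 and 65.3% for ENSRNOG00000013536. Over all 7875 genes tested the median of this share was 45.7%. The genes were selected on their group levels, so shares above the median follow in part from the choice. Between 18.2% and 34.7% of the spread lay within groups. Of that part the LPS pair gave 84.2% for ENSRNOG00000010807 and 67.9% to 69.2% for the other 3 genes. The SD within groups ran from 0.57 to 0.92 on the log2 scale, against a median of 0.19 over the 5464 genes. Between 98.7% and 99.7% of those genes had a smaller spread within groups, a share that the choice of genes by their spread also fixes in part. With LPS library 2 left out, the share between groups was 96.3%, 91.9%, 87.1% and 83.8% in the order of genes above, and with LPS library 1 left out instead it was 97.1%, 93.2%, 91.5% and 89.0%. A group with 1 library has no spread within it, so these higher shares follow from taking the LPS pair's part away.

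LPS against Control is the one comparison without a pretreated library, so its fold change uses none of the libraries with THC, although the estimate of spread is shared by all 8. The test is not free of the choice, because the spread between libraries of 1 treatment, which is widest in LPS, also served to choose the genes. All 4 genes had negative log2 fold changes with LPS, as did 50.7% of all genes tested, and edgeR called 0 of the 4. The log2 fold change was −1.10 for ENSRNOG00000010807 (standard error 0.28, adjusted p = 0.255 from edgeR) and −1.01 for ENSRNOG00000026716 (standard error 0.33, adjusted p = 0.451 from edgeR). ENSRNOG00000013536 had −0.57 (standard error 0.26, adjusted p = 0.661 from edgeR), and ENSRNOG00000054689 had −1.52 (standard error 0.49, adjusted p = 0.439 from edgeR). The 95% intervals from edgeR ran from −1.69 to −0.52, from −1.69 to −0.33, from −1.11 to −0.03 and from −2.53 to −0.50. They depend on the method. DESeq2 gave log2 fold changes of −1.21, −1.09, −0.65 and −1.67 with larger standard errors, 0.68, 0.80, 0.55 and 0.91. Its unadjusted p was 0.076, 0.174, 0.233 and 0.068 (DESeq2, in the same order of genes). A gene was called at an adjusted p under 0.05 with a fold change above 1.6, a rule that 0.0381% of all genes tested met. Without the filter on low counts, the log2 fold change of ENSRNOG00000010807 was −1.12 and edgeR called it, with 0.112% of all genes. With edgeR, an unadjusted p under 0.05 was reached by 4 of the 4 genes and by 7.16% of all genes, from which nothing is read for genes chosen on these libraries. DESeq2 and limma voom called 0 of the 4, and each called 0.0127% of all genes. The LPS and Control libraries lay apart in 2 of the 4 genes, and in 35.9% of all genes tested.

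The size of this difference rests on LPS library 2. Without it the log2 fold changes were −0.56, −0.40, −0.14 and −0.93 for ENSRNOG00000010807, ENSRNOG00000026716, ENSRNOG00000013536 and ENSRNOG00000054689. Without LPS library 1 they were −2.50, −2.45, −1.52 and −3.57. Leaving out Control library 1 gave −0.90, −0.58, −0.34 and −0.97.

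The 5 comparisons that hold a pretreated group are a description, with no p for any of the 4 genes, since the level with THC chose them. The counts of genes called in these 5 were fixed in part by the choice, and nothing is read from them, with or without the share of all genes beside them. Between THC + LPS and THC-COOH + LPS the log2 fold change was −2.80 for ENSRNOG00000010807, −3.03 for ENSRNOG00000026716, −1.42 for ENSRNOG00000013536 and −2.76 for ENSRNOG00000054689, with standard errors of 0.30, 0.36, 0.25 and 0.49. All 4 genes were called there, where 0.229% of all genes were, and this contrast holds the low levels with THC that served to choose them. Limma voom called 4, with 0.216% of all genes, and DESeq2 0, with 0.0508%. The log2 fold changes from DESeq2 were of like size, at −2.73, −2.94, −1.34 and −2.82. Without THC + LPS library 1 the edgeR values were −2.45, −2.56, −0.98 and −2.86. Without THC-COOH + LPS library 2 they were −2.54, −2.62, −1.29 and −2.06.

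Relative to LPS alone, the genes had negative log2 fold changes with THC and positive ones with THC-COOH, and these 2 comparisons share the LPS libraries. With THC the values were −1.43, −1.65, −0.62 and −1.08 in the same order of genes (standard errors 0.35, 0.38, 0.28 and 0.64). EdgeR called 0 of the 4 genes, and 0.0254% of all genes, while 3 of the 4 and 6.16% of all genes had an unadjusted p under 0.05. With THC-COOH they were 1.37, 1.38, 0.80 and 1.68 (standard errors 0.27, 0.32, 0.25 and 0.47). Here edgeR called 0 of the 4 and 0% of all genes, while 4 of the 4 and 6.70% of all genes had an unadjusted p under 0.05. DESeq2 and limma voom called 0 of the 4 in both. Of all genes, DESeq2 called 0.0381% with THC and 0% with THC-COOH, and limma voom 0.0127% and 0%. EdgeR without the filter on low counts called 2 of the 4 in both, with 0.163% and 0.0915% of all genes.

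Which LPS library was used decided the size of these changes. Against LPS library 1 only, the log2 fold changes with THC were −1.97, −2.26, −1.06 and −1.67, and edgeR called 2 of the 4 genes and 0.127% of all genes in that fit. Against LPS library 2 only, they were −0.03, −0.21, 0.32 and 0.98, so that ENSRNOG00000013536 and ENSRNOG00000054689 had the opposite sign. In LPS library 2, which had no THC, each of the 4 genes was at or below the higher THC + LPS library. This rests on 1 library, the one with the lowest total, and on genes chosen for their spread between libraries. For ENSRNOG00000054689 it rests on 2 counts. How often LPS library 2 lay so low over all genes was not counted, so nothing is read from it. The cause was not tested. With THC-COOH, the values were 0.83, 0.77, 0.37 and 1.10 against LPS library 1 and 2.78, 2.82, 1.74 and 3.74 against LPS library 2, where edgeR called 3 of the 4 genes and 0.115% of all genes.

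Relative to Control, the log2 fold changes with THC + LPS were −2.53, −2.66, −1.19 and −2.60 (standard errors 0.31, 0.37, 0.26 and 0.51). EdgeR called 2 of the 4 and 0.0508% of all genes, again on genes chosen for a low level with THC. DESeq2 called 0 of the 4, and 0.0127% of all genes. The number called by edgeR also changed without THC + LPS library 1. It changed without either LPS library too, although neither enters the fold change. Without THC + LPS library 1 the log2 fold changes were −2.19, −2.19, −0.75 and −2.69. Without Control library 1 they were −2.35, −2.26, −0.97 and −2.05. With THC-COOH + LPS the log2 fold changes were 0.27, 0.37, 0.23 and 0.17 (standard errors 0.25, 0.31, 0.23 and 0.38). EdgeR, DESeq2 and limma voom called 0 of the 4, edgeR called 0.0762% of all genes, and an unadjusted p under 0.05 was reached by 0 of the 4 and by 8.43% of all genes. The 95% intervals reached from −0.24 to 0.78, −0.26 to 1.00, −0.25 to 0.70 and −0.62 to 0.95. A level 1.6-fold higher than in Control lay within the interval of each of the 4 genes, and one 1.6-fold lower in none. Without Control library 1 the values were 0.46, 0.78, 0.45 and 0.72, and without Control library 2 they were 0.10, 0.04, 0.03 and −0.24 in the order of genes given above. These 2 comparisons share the Control libraries.

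How far the genes moved differed between them. Against the mean of the other 3 genes, the slope on the log2 scale was 1.12 for ENSRNOG00000010807, 1.25 for ENSRNOG00000026716, 1.13 for ENSRNOG00000054689 and 0.53 for ENSRNOG00000013536. Counts of ENSRNOG00000010807 were between 38.5% and 54.2% of those of ENSRNOG00000026716 in each of the 8 libraries, while the level of either gene varied about 10-fold or more. In LPS library 2 this percentage was 42.1% (95% exact interval 25.0% to 68.9%), and in LPS library 1 it was 39.4% (32.4% to 47.7%). The proportion of the pair thus stayed within a 1.41-fold range. It was lowest in THC-COOH + LPS library 2, where both levels were highest (interval 33.8% to 43.8%). It was highest in THC + LPS library 1, where both were lowest (38.7% to 75.3%), and these 2 intervals overlapped.

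For ENSRNOG00000013536 the percentage was not constant. It was 25.3% and 31.5% in the Control libraries, 33.2% and 52.6% in LPS, 80.4% and 74.7% in THC + LPS, and 30.4% and 21.9% in THC-COOH + LPS. The intervals of the THC + LPS libraries (59.8% to 108% and 53.8% to 103%) lay above those of the Control libraries (20.8% to 30.6% and 25.1% to 39.4%). These intervals cover counting error only, and both genes were chosen for a low level with THC, so this is a description. With the smaller slope of ENSRNOG00000013536 given above, its percentage is higher where both levels are low. LPS library 2, at 32.7% to 83.3%, overlapped with both THC + LPS libraries and with LPS library 1 (26.9% to 40.6%). The counts of ENSRNOG00000054689 were 3.51% to 11.2% of those of ENSRNOG00000026716, and the intervals of all 8 libraries overlapped.

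**Figure D4:**
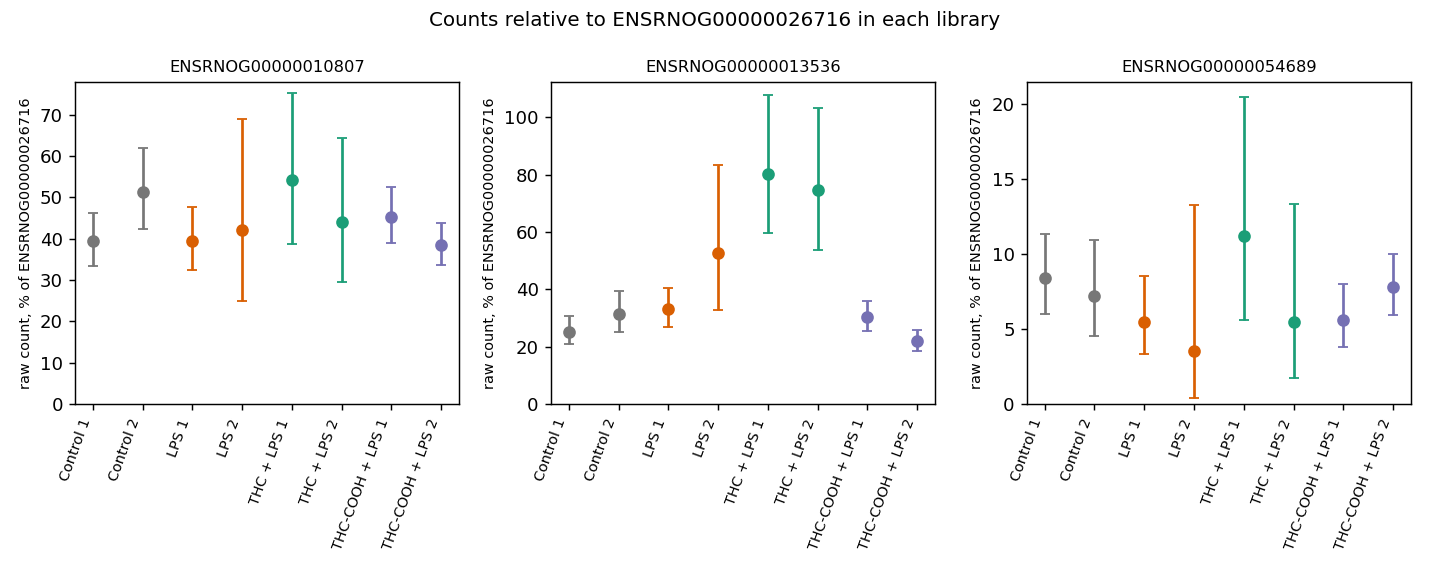
Raw counts of 3 genes as a percentage of the counts of ENSRNOG00000026716 in the same library (vertical axes from 0), with 95% exact binomial intervals, for each library (horizontal axis). ENSRNOG00000010807 stays between 38.5% and 54.2%, while ENSRNOG00000013536 runs from 21.9% to 80.4% and is highest in both THC + LPS libraries.

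Among genes with a mean raw count of at least 50, few others followed these 4 closely across the libraries. Genes below that minimum were not counted, and ENSRNOG00000054689 itself, at a mean of 25.9, would not have passed it. Of 3128 other genes with a mean raw count of at least 50, 11 had a Pearson correlation above 0.9 with the mean standardised profile of the 4 genes over the 8 libraries, and 6 had one below −0.9. With a level that also varied more than 2-fold, there were 3 and 0. Above 0.8 and below −0.8 there were 42 and 28 genes, of which 6 and 0 varied more than 2-fold. The most alike of these 3128 genes was ENSRNOG00000010461 (r = 0.96). It had 129 and 101 CPM in Control, 113 and 42.7 in LPS, 35.9 and 42.9 in THC + LPS, and 91.4 and 115 in THC-COOH + LPS. It also had its low levels in LPS library 2 and both THC + LPS libraries. ENSRNOG00000057623 was next (r = 0.96), at 61.2 to 66.6 CPM in those 3 libraries and 87.0 to 123 CPM in the other 5. The most opposite of the 3128 genes, ENSRNOG00000021750 (r = −0.95) and ENSRNOG00000001348 (r = −0.94), varied only 1.14-fold and 1.29-fold.

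Besides these 4, 11 genes were called lower with THC + LPS than with THC-COOH + LPS. Their correlations with the profile ran from 0.24 to 0.97, with a median of 0.74, and 3 of the 11 were above 0.8. No minimum mean count applied to these 11, and their highest correlation was above that of ENSRNOG00000010461. LPS library 2 was at or below the higher THC + LPS library in 4 of these 11 genes and in 4 of the 4 described here. The 11 were picked by this contrast, and the 4 by their low level with THC and their spread. How often LPS library 2 lay so low over all genes was not counted, so nothing is read from these counts. The difference between them was not tested.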

How the data were processed

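RNA of 8 libraries, 2 in each of 4 groups, was measured by bulk MARS-seq. Per the labels, the submitters' processing notes name bcl2fastq 2.20.0.422, cutadapt, STAR 2.7.3a, HTSeq and DESeq2 1.26.0 on the build Rnor_6.0; how molecular identifiers were collapsed, and against which gene annotation, is not given in the sources used here. Raw counts per Ensembl gene, as deposited, were not normalized and were used here. The deposited normalized signal equals those counts divided by 1 size factor per library, which was checked for counts of 100 or more. Whether a gene overlaps or resembles another one was not checked.

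Counts were fitted with edgeR 4.0.16 in R 4.3.3 (TMM, quasi-likelihood, 1 coefficient per group, 8 libraries), for 7875 of 9848 genes with a raw count above 10 in a library; 9 genes had no count. P-values were adjusted by Benjamini-Hochberg over all genes tested, and a call needed an adjusted p under 0.05 and a fold change above 1.6, the thresholds of the study's methods. Standard errors were obtained from each fold change and its F statistic. An exact permutation test of 2 against 2 cannot go below 0.333. Log2 CPM for spread and correlation used a prior count of 2. Intervals of ratios are exact (Clopper-Pearson, 95%). The edgeR script and the measures of spread were tested on simulated data. Alternatives were DESeq2 1.42.0, limma 3.58.1 (voom), other scalings, filters and prior counts, fits on only those 4 libraries that a comparison is about, blocking on replicate number, and leaving out each library; a lone library was then assumed to vary like the other groups. Spread with a library left out was added after seeing the data. The genes and the measures were chosen with earlier results of these data known. By rule, the genes named were the 4, and the 2 most and 2 least correlated with their profile at a mean count of at least 50. Computation also used Python 3.11.15, scipy 1.17.1 and matplotlib 3.10.9.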

Additional observations from a re-analysis of the deposited data

Results flagged for a closer look

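All 4 genes had a negative log2 fold change with THC and a positive one with THC-COOH when LPS alone was the reference. The difference between them, which is the log2 fold change of THC + LPS against THC-COOH + LPS, was −2.80 for ENSRNOG00000010807, −3.03 for ENSRNOG00000026716, −1.42 for ENSRNOG00000013536 and −2.76 for ENSRNOG00000054689. The LPS libraries cancel in it. The low levels with THC that it holds served to choose the genes, so nothing is read from the calls given for it above. Groups of 2 libraries are too small for a check of single outlying libraries, so LPS library 2 was not tested as one.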

How the results depend on the processing

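Of the 4 genes, the number called is given in the order in which the contrasts follow: LPS minus Control, then THC + LPS minus LPS, then THC-COOH + LPS minus LPS, then THC + LPS minus THC-COOH + LPS, then THC + LPS minus Control, then THC-COOH + LPS minus Control. They were 0, 0, 0, 4, 2 and 0. Without a filter on low counts they were 1, 2, 2, 4, 4 and 0. DESeq2 gave 0 in each of the 6, limma voom 0, 0, 0, 4, 2 and 0, and the libraries of a comparison alone 0, 0, 0, 4, 4 and 0. With a library left out, its group held 1 library, so the number called in those fits is not listed here. It changed with the library left out in every contrast but the last. DESeq2 size factors gave the edgeR numbers, and filterByExpr differed only in THC + LPS minus Control, with 3. Of all genes, the main fit called 0% to 0.229% over the contrasts, and 0.0915% to 0.305% without a filter on low counts. DESeq2 called 0% to 0.0508% of all genes and limma voom 0% to 0.216%. The libraries of a comparison alone gave 0% to 0.333%, and filterByExpr 0% to 0.319%. The causes were not tested.

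A fit with a replicate block called 1, 2, 2, 4, 4 and 0, with 0.102% to 0.381% of all genes. The numbers share no source in the labels: differences between library 2 and library 1 correlated from −0.08 to 0.14 over genes between groups, so the libraries were not treated as paired.

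The share of spread between groups, with each library left out, ran from 75.6% to 97.1%, 70.4% to 93.2%, 58.4% to 89.0% and 68.6% to 91.5% for ENSRNOG00000010807, ENSRNOG00000026716, ENSRNOG00000013536 and ENSRNOG00000054689. The mean correlation of the genes, 0.96, ran from 0.957 to 0.973, and was 0.930 for deviations from the group means. Depth limits ENSRNOG00000054689 most, with 2 to 66 counts a library.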
